A study of Mus musculus with 2 samples.

Results

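Keratins, desmosome components and the proteins of layered epithelium were read on 1 array each in kidney RNA of 1 control animal, Mxi1 +/+, and 1 experimental animal, Mxi1 -/-. The members are all genes named in the platform annotation whose symbol starts with Krt, Sprr, Upk, Dsg, Dsc or Pkp, together with Dsp, Evpl, Ppl, Ly6d and Trp63 where a probe is named for them. The choice gave 68 genes, read by 69 probes, of 10208 named genes on the array. They are 5 simple keratins, 11 keratins of stratified epithelium, 9 hair and root sheath keratins, 3 other keratins (Krt23, Krt80 and Krt222), 18 keratin-associated proteins of hair, 8 small proline-rich (Sprr) genes, 2 uroplakins, 3 desmosomal cadherins, 2 plakophilins, 2 plakins, Ly6d and Trp63. Another 3 share only the letters: Krtcap2, Krtcap3 and the neuronal adhesion gene Dscam. No named probe stood for desmoplakin (Dsp), so that gene was not analysed here.

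Both samples carry the label 1Y. The Mxi1 -/- mouse has the Mxi1 genotype as its stated difference, while its strain, its sex and the nature of the allele are unknown here. Each genotype has 1 array and 1 mouse, so no replicate spread exists and no p-value or standard error is given. A value is a linear intensity in arbitrary units, on the scale the authors deposited.

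Keratins are the intermediate filament proteins of epithelial cells, and a filament needs a type I and a type II keratin together. Simple keratins fill cells of single-layered epithelia such as the collecting duct, and others belong to layered epithelia, skin and hair. In the kidney the layered epithelium is the urothelium of the pelvis, with basal cells that make Krt5 and the transcription factor p63 (Trp63) and surface cells that make uroplakins. Desmosomes rivet neighbouring cells to the keratin network, with cadherins outside the membrane and plakophilins and plakins inside it. The Sprr proteins, with envoplakin and periplakin, are cross-linked into the envelope under the membrane of differentiating squamous cells.

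The Mxi1 probe was 2.54-fold lower in the Mxi1 -/- library (readings of 4.31 and 1.69), a check of direction only, because the place of the probe relative to the deleted part is not known here. Kidney markers were present: all 10 proximal tubule genes on the array and all 7 of the thick ascending limb and distal tubule read above the noise floor on both arrays, among them Napsa (473 and 770) and Klk1 (553 and 639). The noise floor, 3 times the root mean square of an array's values below 0, was 0.102 in Mxi1 +/+ and 0.156 in Mxi1 -/-. Of the 68 members, 52 read above the floor on both arrays and are called resolved. Another 10 lay under the floor in Mxi1 -/- alone, 3 in Mxi1 +/+ alone and 1 in both, and 2 had a missing value. Fold differences are given for resolved genes, with both arrays centred on their medians, and a reading under the floor gives a lower bound against that floor.

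The promoters of the Sprr genes are shown first, because these genes lie side by side on chromosome 3 and gave both very different and nearly equal readings. Each window holds the 250 bases before the RefSeq gene start (assembly GRCm38.p6), printed 5′ to 3′ on the gene's own strand. Capitals mark matches, on either strand, to TGANTCA (the AP-1 motif), TATAAA (the TATA box) or CACGTG (the E-box bound by MAX with its partners, Mxi1 among them), and no matches overlapped in the windows shown.
Sprr1a, chr3:92485882-92486131 (- strand): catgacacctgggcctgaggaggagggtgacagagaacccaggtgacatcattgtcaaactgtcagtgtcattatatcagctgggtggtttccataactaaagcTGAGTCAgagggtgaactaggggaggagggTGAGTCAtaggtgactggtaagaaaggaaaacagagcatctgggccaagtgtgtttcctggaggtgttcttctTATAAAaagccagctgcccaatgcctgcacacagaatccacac
Sprr2a1, chr3:92215585-92215834 (+ strand): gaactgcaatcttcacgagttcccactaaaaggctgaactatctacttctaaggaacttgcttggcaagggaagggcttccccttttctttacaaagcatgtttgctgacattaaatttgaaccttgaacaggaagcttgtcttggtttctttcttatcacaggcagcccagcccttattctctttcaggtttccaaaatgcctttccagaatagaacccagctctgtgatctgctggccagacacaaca
Sprr1b, chr3:92438780-92439029 (- strand): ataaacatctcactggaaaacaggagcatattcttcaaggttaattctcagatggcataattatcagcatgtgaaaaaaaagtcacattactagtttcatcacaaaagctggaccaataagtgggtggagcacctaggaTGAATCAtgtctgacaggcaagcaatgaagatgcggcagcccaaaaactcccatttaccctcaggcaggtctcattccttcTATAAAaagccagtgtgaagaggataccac
Sprr2b, chr3:92316455-92316704 (+ strand): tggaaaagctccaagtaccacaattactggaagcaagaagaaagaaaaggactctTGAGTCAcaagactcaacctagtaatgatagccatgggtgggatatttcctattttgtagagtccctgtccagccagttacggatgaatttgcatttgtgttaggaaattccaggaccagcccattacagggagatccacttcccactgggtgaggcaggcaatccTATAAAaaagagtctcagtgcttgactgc
Sprr2h, chr3:92385435-92385684 (+ strand): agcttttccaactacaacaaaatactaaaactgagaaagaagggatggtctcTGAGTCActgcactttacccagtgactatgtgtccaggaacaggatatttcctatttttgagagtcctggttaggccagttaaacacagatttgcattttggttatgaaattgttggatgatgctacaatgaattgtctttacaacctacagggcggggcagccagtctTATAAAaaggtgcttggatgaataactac

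TGANTCA was found in 6 of the 8 Sprr windows, with a pair of matches in Sprr1a, and TATAAA in 7 of 8. The Sprr2a1 window held neither, which says only that these letters are absent from it. Over all 32851 promoter windows of the RefSeq table, 6.75% held TGANTCA, 12.4% TATAAA and 6.02% CACGTG. Among the 47 windows available for 45 of the members, 12 (25.5%) held TGANTCA, 28 (59.6%) TATAAA and 3 (6.38%) CACGTG. No Sprr window held CACGTG. The motif was present in the windows of Krt23, Krt75 and Krtap19-4, of which the keratins are printed because one differed more than 2-fold between the kidneys and the other hardly at all.
Krt23, chr11:99493121-99493370 (- strand): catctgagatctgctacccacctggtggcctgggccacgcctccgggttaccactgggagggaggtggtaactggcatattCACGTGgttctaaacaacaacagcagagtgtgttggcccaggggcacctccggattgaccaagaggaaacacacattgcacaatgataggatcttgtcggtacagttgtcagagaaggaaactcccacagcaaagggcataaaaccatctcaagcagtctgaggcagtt
Krt75, chr15:101573905-101574154 (- strand): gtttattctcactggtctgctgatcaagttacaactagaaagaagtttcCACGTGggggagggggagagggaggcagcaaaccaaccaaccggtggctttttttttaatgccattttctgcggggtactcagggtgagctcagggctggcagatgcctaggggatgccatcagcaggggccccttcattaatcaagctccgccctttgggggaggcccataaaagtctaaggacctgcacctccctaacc

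The members split by direction and level. Of the 52 resolved members 8 (15.4%) were at least 2-fold lower in Mxi1 -/-, against 2.13% of the 8735 resolved named genes, and 5 (9.62%) were at least 2-fold higher, against 2.66%. The lower ones were Sprr1a, Sprr2a1, Krt5, Ly6d, Krt19, Krt23, Krt18 and Ppl. The higher ones were Krt13, Krt25, Krtap31-1, Krtap4-7 and Dsc2. Of the 29 members at or above the median level of all probes, 7 (24.1%) were at least 2-fold lower and 0 higher, against 1.39% and 0.558% of the 5737 named genes at that level. Below the median level the counts of resolved members ran the other way. There 1 of 23 resolved members (Krt23) was at least 2-fold lower and 5 (21.7%) were higher, against 3.54% and 6.67%. These counts leave out members under a floor, and the floor is higher in Mxi1 -/- (0.156) than in Mxi1 +/+ (0.102). Under it lay 10 members in Mxi1 -/- alone and 3 in Mxi1 +/+ alone. Without the floor and at all levels, 12 members were at least 2-fold lower and 9 higher, against 5.59% and 5.77% of named genes. The median log2 difference over the 52 was 0.023, beside -0.042 over all resolved named genes, so the members did not differ in one direction as a whole. With the array median added to each intensity before taking log2, which shrinks differences of dim genes, 6 members were at least 2-fold lower. In that setting 0 were higher, and the shares of resolved named genes were 0.481% lower and 0.321% higher.

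**Figure D1:**
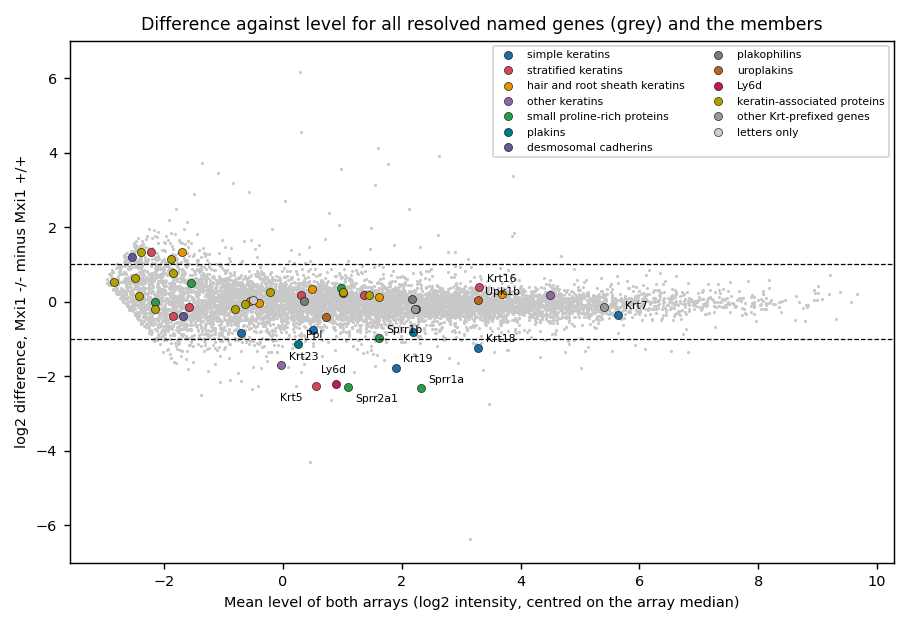
The log2 difference (Mxi1 -/- minus Mxi1 +/+, vertical axis) is plotted against the mean log2 level of both arrays (horizontal axis, centred on the array median) for 8735 resolved named genes in grey and the 52 resolved members in colour by family, with dashed lines at 2-fold. The members furthest below the lower line lie near or above the middle of the level range, and the 5 above the upper line all lie at low level.

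Simple keratins all read lower in Mxi1 -/-. Over the 5 genes the median log2 difference was -0.84, beside -0.042 for all resolved named genes, and 2 of 5 were at least 2-fold lower. Krt19, the smallest keratin and a marker of ducts and urothelium, had readings of 7.06 (Mxi1 +/+) and 2.06 (Mxi1 -/-), or 3.43-fold lower (probe 2729). Krt18 was 2.36-fold lower (15.3 in Mxi1 +/+ and 6.50 in Mxi1 -/-, probe 3124), and its type II partner Krt8 read 0.835 and 0.467 (1.79-fold lower). Krt8 sets the median of the 5 and was the only simple keratin below the median level of all probes. With the array median added to each intensity, its log2 difference was -0.33. Krt8 and Krt18 are next to each other in the genome with no protein-coding gene between them. Krt20, a keratin of urothelial surface cells and gut, read 1.88 and 1.11 (1.69-fold lower). Krt7, the type II keratin of ducts and urothelium, read 57.6 and 45.0 (1.28-fold lower), the smallest difference of the 5. All 5 stayed lower under each of the 7 alternative ways of scaling or averaging. In bulk RNA, fewer cells of a type and less RNA per cell cannot be told apart.

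No other resolved keratin of stratified epithelium was as far lower as Krt5. Krt5, the type II keratin of basal cells, gave 3.30 in the control and 0.684 in Mxi1 -/- (4.82-fold lower, probe 7211), and it was the only resolved stratified or hair keratin past 2-fold on the lower side. Its usual partner in basal cells, Krt14, read 0.358 and 0.322 (1.11-fold lower). Krt15, another basal type I keratin, read 0.323 and 0.248 (1.30-fold lower). Both genes read above the floors on each array, at low level. The genomic neighbours of Krt5 read slightly higher in Mxi1 -/-: Krt6a, a keratin of stressed and dividing epidermis, read 1.91 and 2.23 (1.17-fold), and the root sheath keratin Krt71 read 1.27 and 1.61 (1.27-fold).

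The other stratified keratins at or above the median level were also higher, by small amounts. Krt16, the type I keratin induced with Krt6 in wounded skin, read 8.82 and 11.5 (1.31-fold). Krt4, a keratin of oesophagus and other internal squamous linings, read 2.48 and 2.78 (1.12-fold), while its partner Krt13 read 0.137 and 0.346 (2.52-fold higher). The Krt13 reading in Mxi1 +/+ lay just above that array's floor of 0.102. Krt79 read 1.18 and 1.34 (1.13-fold) on its brighter probe, and 0.124 and 0.162 (1.30-fold) on its other probe. Krt12, the keratin of the cornea, and Krt1, of the upper epidermis, lay under the floor in Mxi1 -/- and read 0.231 and 0.247 in Mxi1 +/+, which bounds them at 1.48-fold and 1.59-fold lower or more. Krt17 read 0.105 and 0.147, close to both floors, and has no fold here.

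Among the hair and root sheath keratins most resolved genes differed little. Of 9 such genes 6 were resolved, with a median log2 difference of 0.16, and 1 (Krt25) passed 2-fold. Krt31, a type I keratin of the hair cortex, read 12.3 and 14.1 (1.15-fold higher), and Krt84 read 3.02 and 3.27 (1.08-fold higher). Krt25, of the inner root sheath, read 0.200 and 0.499 (2.50-fold higher). Krt34 read 0.688 and 0.701, and Krt75, whose promoter holds CACGTG, read 0.780 and 0.760 (1.03-fold lower). Krt27, Krt33a and Krt82 lay under the floor in Mxi1 -/- and between 0.171 and 0.312 in Mxi1 +/+, which bounds Krt82 at 1.997-fold, Krt27 at 1.53-fold and Krt33a at 1.10-fold lower or more. Over all 14 resolved stratified and hair keratins the median was 0.17, with 10 higher and 4 lower. These counts leave out 6 genes, all under the floor in Mxi1 -/- alone, where the floor is the higher one. Of those, Krt82, Krt27, Krt33a, Krt12 and Krt1 are bounded on the lower side and Krt17 has no bound. The lean to the higher side holds for resolved genes only.

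Among the other keratins, Krt23, a type I keratin of several epithelia whose promoter also holds CACGTG, read 1.81 and 0.555 (3.25-fold lower, probe 17951). It is the genomic neighbour of Krt20, with no protein-coding gene between them. Krt222, a short relative of the type I keratins, read 21.5 and 24.5 (1.14-fold higher). Krt80 read 3.83 in Mxi1 +/+ and had a missing value in Mxi1 -/-, so no difference can be given. By partner class, 3 of 12 resolved type I keratins and 1 of 9 type II keratins were at least 2-fold lower, beside 2.13% of all resolved named genes.

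**Figure D2:**
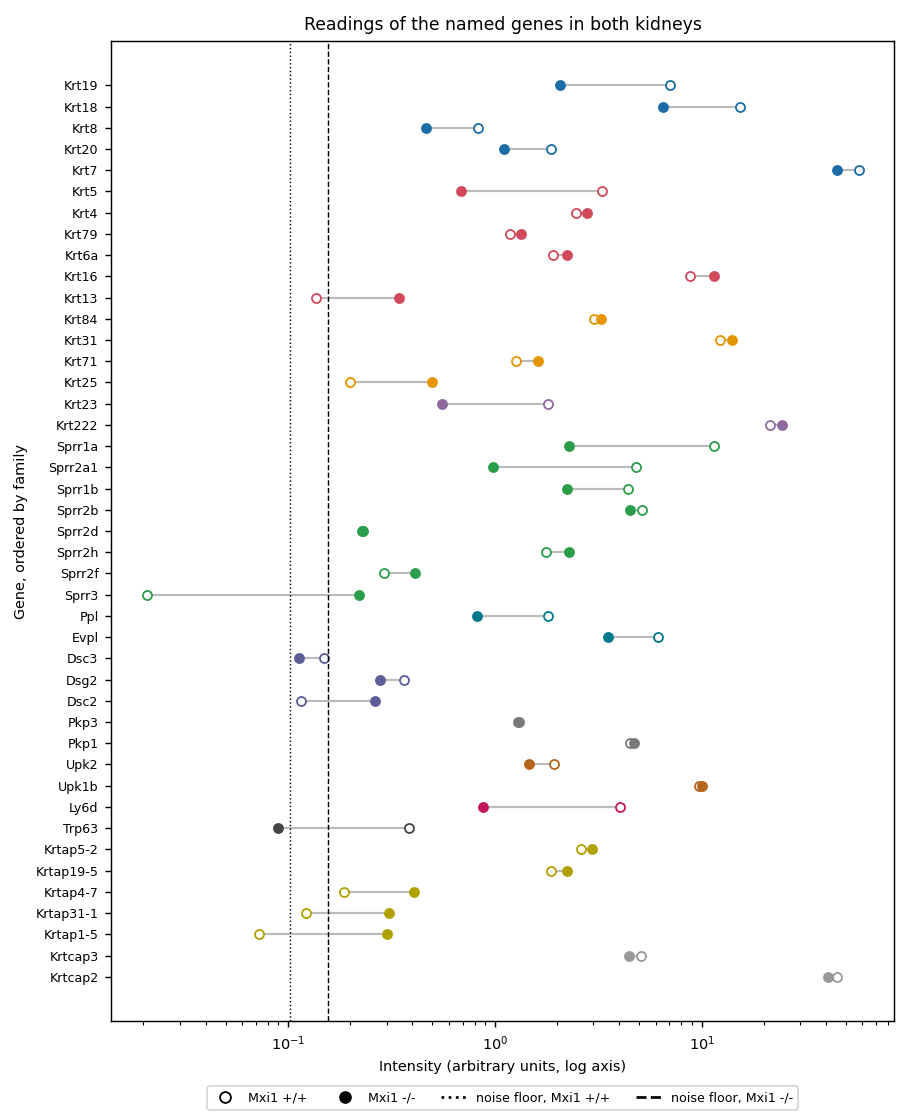
Intensity in Mxi1 +/+ (open circle) and Mxi1 -/- (filled circle) is shown on a log axis for the 43 members that met the naming rule, in order of family, with a colour for each family and the noise floor of each array as a vertical line. Long bars to the left mark Krt19, Krt5, Krt23, Sprr1a, Sprr2a1 and Ly6d, and the longest bars to the right (Sprr3, Krtap1-5, Krt13) start close to or under the floors.

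The Sprr genes, whose products cross-link into the envelope of squamous cells, ran from 5.03-fold lower to at least 2.15-fold higher. Sprr1a gave 11.5 in the control and 2.29 in Mxi1 -/- (5.03-fold lower, probe 10594). Sprr2a1 read 4.81 and 0.978 (4.91-fold lower, probe 13319). Sprr1b read 4.42 and 2.23 (1.98-fold lower), just short of the 2-fold line, while Ppl, at 2.19-fold, lay just past it. The other Sprr genes of the cluster with readings at or above the median level of all probes, Sprr2b and Sprr2h, differed by less than 1.5-fold.

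Sprr2b read 5.14 and 4.49 (1.14-fold lower). Sprr2h read 1.77 and 2.29 (1.29-fold higher). Dim members were near even or higher: Sprr2d read 0.230 and 0.229, and Sprr2f read 0.293 and 0.411 (1.40-fold higher). Sprr3 lies between Sprr1b and Sprr1a in the genome. It read 0.0208, under the floor, in Mxi1 +/+ and 0.220 in Mxi1 -/-, at least 2.15-fold higher, although 0.220 is itself near that array's floor. Both the 5.03-fold lower Sprr1a and the near-even Sprr2b carry TGANTCA and TATAAA in the windows printed above, and the 4.91-fold lower Sprr2a1 carries neither. The Sprr2 genes are close copies of each other, and the probe sequences were not at hand, so signal shared between them was not tested.

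Ly6d and Trp63, both known from layered epithelia, read lower. Ly6d, a GPI-anchored surface protein of squamous and urothelial cells, gave 4.05 in the control and 0.879 in Mxi1 -/- (4.61-fold lower, probe 16418). Trp63, the transcription factor that maintains basal cells, read 0.387 and 0.0900, the latter under the floor, at least 2.48-fold lower. Of the uroplakins, made by urothelial surface cells, Upk1b, a tetraspanin, read 9.77 and 10.0 (1.02-fold higher), and Upk2, a plaque protein of umbrella cells, read 1.94 and 1.47 (1.32-fold lower).

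Desmosome genes showed no common direction, with 3 of 6 resolved members on each side and a median of -0.18 on the log2 scale. That median turned to 0.0051 with values under the floor raised to it. The plakins, which tie desmosomes and the envelope to keratin, were the lower members. Periplakin (Ppl) read 1.80 and 0.824 (2.19-fold lower, probe 7468), and envoplakin (Evpl) read 6.15 and 3.52 (1.75-fold lower). The plakophilins, armadillo proteins of the desmosomal plaque, were even: Pkp1 read 4.52 and 4.70 and Pkp3 read 1.29 and 1.31. The desmosomal cadherins were dim in both kidneys. Dsg2, the desmoglein of simple epithelia, read 0.365 and 0.279 (1.31-fold lower), Dsc2 read 0.116 and 0.265 (2.28-fold higher), and Dsc3 read 0.149 and 0.114, the latter under the floor.

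**Figure D3:**
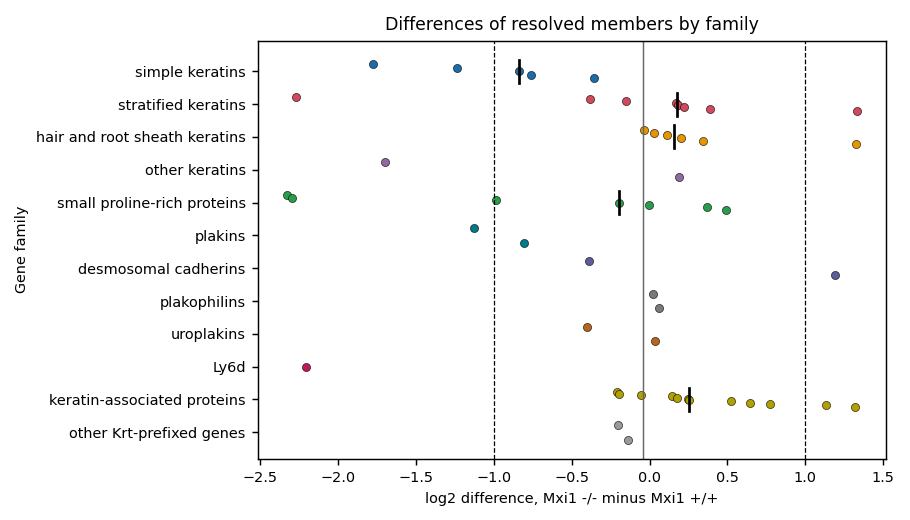
Each point is the log2 difference (Mxi1 -/- minus Mxi1 +/+) of a resolved member, by family. Black bars mark medians of families with at least 3 resolved members, the grey line the median of all resolved named genes (-0.042) and dashed lines 2-fold. All 5 simple keratins lie to the left of the grey line, while the hair keratins and most stratified keratins lie on it or to its right, with Krt5, Krt15 and Krt14 to its left.

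Keratin-associated proteins, the matrix proteins of hair, were mostly dim. Of 18 genes 12 were resolved, 9 on the higher side and 3 on the lower, at a median of 0.25 on the log2 scale, and only Krtap5-2 and Krtap19-5 reached the median level of all probes. Krtap5-2 read 2.62 and 2.96 (1.13-fold higher) and Krtap19-5 read 1.88 and 2.24 (1.19-fold higher). The members past 2-fold were Krtap31-1 (0.123 and 0.307) and Krtap4-7 (0.187 and 0.409), with Krtap1-5 at least 2.95-fold higher from a reading under the floor in Mxi1 +/+. These readings lie near the floors, in the range where 6.67% of all named genes were at least 2-fold higher. Of the genes that share only the letters, Krtcap2, a subunit of the enzyme that attaches sugars to proteins, read 45.1 and 41.0, Krtcap3 read 5.12 and 4.45, and Dscam read 0.707 and 0.729.

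Other genes of the same structures were read from fixed lists, chosen with earlier results of these data known. Their counts stand beside a background in which 55.2% of all resolved named genes, and 59.9% of those at or above the median level, read lower in Mxi1 -/-. The listed genes of other epithelial junctions read lower in Mxi1 -/- in 11 of 11 cases, with 1 past 2-fold and a median of -0.59 on the log2 scale. Claudins outside the list went both ways, such as Cldn9 (log2 difference 0.21) and Cldn2 (-0.59). The adhesion protein Epcam read 55.1 and 23.5 (2.34-fold lower), β-catenin (Ctnnb1) read 8.09 and 4.54 (1.78-fold), claudin 1 (Cldn1) read 1.47 and 0.891 (1.65-fold) and the desmosome-linked p63 target Perp read 4.95 and 3.15 (1.57-fold). Of the envelope and cross-linking genes, 6 of 12 resolved genes were lower (median -0.012), but among those of at least median level 5 of 6 were (median -0.35). Of the 12, 0 were at least 2-fold lower and 1 at least 2-fold higher, against 2.13% and 2.66% of resolved named genes. That 1 gene was the dim Lgals7, with readings of 0.126 and 0.265 (2.10-fold higher). For the late envelope gene Lce1b, whose Mxi1 -/- reading fell short of the floor, the bound is at least 2.66-fold lower. The envelope-associated sciellin (Scel) read 6.56 and 3.51 (1.87-fold lower), S100a14 read 8.27 and 4.97 (1.66-fold lower) and the transglutaminase Tgm1, which cross-links Sprr proteins, read 3.60 and 3.59.

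Of 4 resolved hemidesmosome and basement membrane genes, the laminin chain Lamb3 was lower (2.13 and 0.762, 2.80-fold) and the basal cell collagen Col17a1 was not (6.65 and 7.43, 1.12-fold higher). Transcription factors of layered epithelia were lower in 9 of 13 resolved genes, with a median of -0.15, a share not far from that background. Of the 13, 2 were at least 2-fold lower, against 2.13% of resolved named genes. They were Elf5 (1.46 and 0.429, 3.41-fold), below the median level, and the Ets factor Ehf (1.85 and 0.860, 2.15-fold). Klf5 was 1.43-fold lower, Gata3 was 1.25-fold lower and Klf4 was 1.40-fold higher. Another 4 factors lay under the floor in Mxi1 -/- alone. Elf5, Gata3 and, from the urothelial list, Aqp3 are also counted among the collecting duct genes below. Further urothelial and lower tract genes were lower in 8 of 10, 3 of them at least 2-fold, with a median of -0.68. The surface antigen Psca read 13.96 and 4.46 (3.13-fold lower), the ion pump regulator Fxyd3 read 2.25 and 0.785 (2.87-fold lower) and Snx31, a uroplakin-sorting nexin, read 2.34 and 1.45 (1.61-fold lower). Of the intermediate filaments outside the keratin family, 3 of 6 resolved genes were higher, with a median near 0, and vimentin (Vim) read 17.9 and 14.2 (1.26-fold lower). Both unresolved genes, the neuronal filaments Prph and Nefm, had control readings short of the floor and were at least 7.19-fold and 1.89-fold higher in Mxi1 -/-.

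Marker lists of surrounding tissues and of tubule segments differed in direction, with fat genes the furthest lower. Of 12 fat genes on the array all 11 that were resolved were lower, 9 of them at least 2-fold, with a median of -1.89, and their summed intensity over the 12 was 426 in Mxi1 +/+ and 217 in Mxi1 -/-. None of these readings was at or below 0, and the brown fat gene Ucp1 lay under the floor in Mxi1 -/-. Smooth muscle genes are found in the wall of the pelvis, ureter and vessels. Of 8 such genes 5 were lower, not far from the share of 55.2% among all resolved named genes (median -0.34, summed intensity 56.7 and 42.7). At least 2-fold lower were 2 of the 8, Actg2 and Cnn1, against 2.13% of all resolved named genes. At or above the median level 4 of 5 were lower (median -0.53), against 59.9% of named genes at that level. Actg2, below that level, read 1.67 and 0.351 (4.77-fold lower). Cnn1 was 2.96-fold and Myh11 1.75-fold lower. Of the 8 genes 3 were higher, among them Lmod1 at 1.68-fold and Tagln at 1.05-fold. Collecting duct genes were lower in 12 of 16, against 55.2% of all resolved named genes (median -0.34, summed intensity 309 and 303). At or above the median level 10 of 14 were lower, against 59.9% of named genes at that level. Tmem45b was 1.78-fold lower, and 4 genes were higher, among them Calb1 at 1.24-fold. Proximal tubule genes were lower in 4 of 10 (median 0.056, summed intensity 1394 and 1568), and immune cell genes in 2 of 9 resolved (median 0.29). A further 3 immune cell genes lay under the floor in Mxi1 -/- alone. Ptprc was at least 2.87-fold, Itgam at least 1.64-fold and Ms4a1 at least 1.39-fold lower. The part of these tissues in the lower readings of Krt5, Ly6d, the Sprr genes and the simple keratins was not tested. With 1 kidney a genotype, genotype cannot be told apart from how each kidney was dissected.

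**Figure D4:**
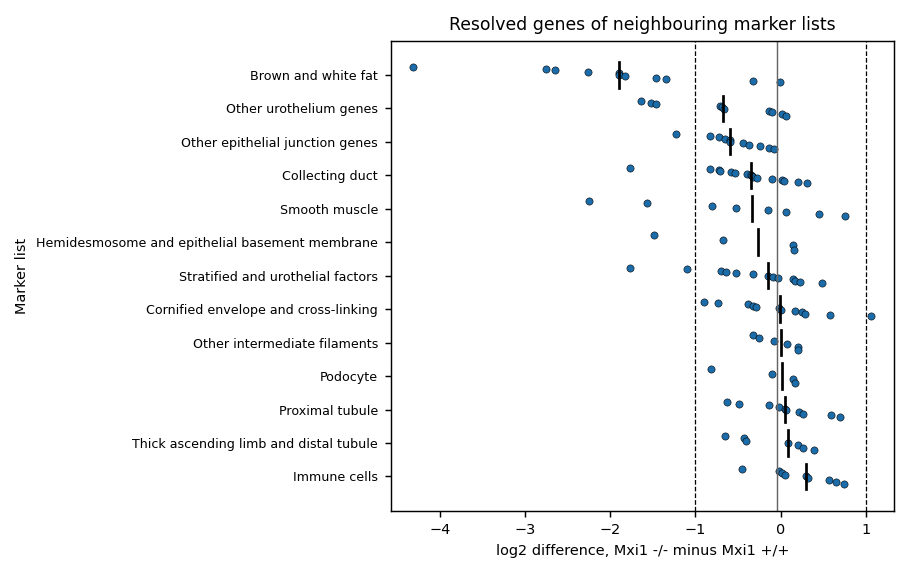
Each point is the log2 difference (Mxi1 -/- minus Mxi1 +/+) of a resolved gene in a fixed marker list that holds none of the members. Black bars are list medians, the grey line is the median of all resolved named genes and dashed lines mark 2-fold. Fat genes lie furthest to the left (median -1.89), followed by urothelial (-0.68) and epithelial junction genes (-0.59). Collecting duct and smooth muscle genes come next (each -0.34), and the proximal tubule, distal tubule and podocyte lists lie near the grey line.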

How the data were processed

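Biotin-labelled cRNA was made from DNase-treated kidney RNA and read on CodeLink arrays, per the labels' protocols. The authors deposited linear intensities for 20289 probes, and how these were corrected and normalized is not given in the sources at hand. The code -9999 was read as missing (60 and 39 places in Mxi1 +/+ and Mxi1 -/-). The platform annotation names 1 gene for 10349 probes, and all gene identifiers matched the RefSeq table (GRCm38.p6).

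No pseudocount was added, and log2 values were centred on the array median over 19663 probes above 0 on both arrays. A gene with several probes (136) took the brightest. The SD between probes of the same gene was 0.167 on the log2 scale, from 41 genes with 2 probes of at least median level, a technical error without variation between animals. With 1 array a group no test was run, and 2-fold is a line of size. The number of arrays limits the precision.

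Named members were those with a reading above the floor and either the median level or 2-fold, plus all simple keratins, desmosomal cadherins, plakins, uroplakins, Sprr genes, Ly6d and Trp63. From each marker list at most 4 genes were to be named, those with the largest difference at or above the median level. Tgm1, Ucp1, Klk1, Prph, Nefm, Lce1b, Krt14, Krt15, Krt80, Krt75 and other dim members were named after their values were seen, to account for partners and remaining members. Lgals7, Lmod1, Tagln, Calb1, Cldn2 and Cldn9 were also named after their values were seen, to give both directions. So were Actg2, Elf5, Ptprc, Itgam and Ms4a1, to cover genes below the median level or under a floor. The members and lists were chosen with earlier results of these data known. In simulated arrays, 99.5% of 200 genes shifted up by 1.5 on the log2 scale passed the 2-fold line, among 10101 genes. There 0% of unshifted genes passed it. On the measured arrays 2.13% of resolved named genes were at least 2-fold lower and 2.66% at least 2-fold higher. Recovery at the spread of the measured arrays was not tested. Promoters are RefSeq's, matched by symbol for 45 of 68 members. The tools were pandas 2.3.3, NumPy 2.4.6 and statsmodels 0.14.6 under Python 3.11.15, with matplotlib 3.10.9 for plots.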

Additional observations from a re-analysis of the deposited data

How the results depend on the processing

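No paired analysis was possible because each genotype has 1 array. The count of members at least 2-fold lower (8) stayed between 6 and 12 under the alternatives that kept the 2-fold line. It was 6 with the pseudocount, against 0.481% of named genes, and 12 without the noise floor, against 5.59%. At least 1.5-fold lower were 12 members (against 7.53%), and at least 3-fold lower 6 (against 0.401%). The count of higher members (5) was 0 with a pseudocount of the array median, against 0.321% of named genes under the same setting. It was 0 at or above the median level (against 0.558%) and 2 at or above the 25th percentile of level (against 1.65%). Without the noise floor it was 9 (against 5.77%). At least 3-fold higher were 0 members (against 0.572%), and at least 1.5-fold higher 7 (against 7.48%). The simple keratin median (-0.84) was -0.45 with the pseudocount and between -0.999 and -0.84 otherwise. The stratified and hair keratin median (0.17) stayed between 0.057 and 0.20. The desmosome median (-0.18) rests on few dim genes: it was -0.39 without the floor, -0.39 at or above the median level, -0.39 at or above the 25th percentile, and 0.0051 with values raised to the floor, since more or fewer dim cadherins then enter. Among 39 named resolved members, none changed direction, and 17 moved by more than the difference between probes of a gene, under the pseudocount only. Low signal limits the cadherins, Krt8, Krt13, Krt14, Trp63, Sprr3 and most keratin-associated genes.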
